A study of Homo sapiens with 8 samples.

Results

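The cyclins described here are 9 genes that pace the division of human cells. They are the D-type cyclins CCND1, CCND2 and CCND3, the E-type cyclins CCNE1 and CCNE2, the A-type cyclin CCNA2, the B-type cyclins CCNB1 and CCNB2, and CCNF. They were picked by gene name from the 34809 gene names of a single-colour Agilent expression array, and all 9 were on it. RNA came from HuCCT1, an established cell line of human intrahepatic cholangiocarcinoma, a cancer of the bile ducts within the liver. Cells carried one of 4 short hairpin RNA (shRNA) vectors, with 2 arrays each. The vectors shControl and shNontarget are labelled as control, and shBEX2-1 and shBEX2-2 as BEX2 knockdown, so that 4 arrays of each kind could be compared. BEX2 is a small protein whose loss the study followed for its part in dormant cancer stem cells. No treatment other than the vector is given for any group, and the study's methods describe it as retroviral for the BEX2 hairpins. The study's text describes 1 control hairpin, against luciferase, and the sources used here do not say which control vector that is. Separate cultures for the 2 arrays of a vector are not stated either, so that p-values measure the spread between these arrays, which may be technical.

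Cyclins are the regulatory subunits of cyclin-dependent kinases (CDKs). D-type cyclins bind CDK4 and CDK6 in G1 and respond to growth factors, and E-type cyclins bind CDK2 at the entry into S phase. Cyclin A2 acts with CDK2 in S phase and with CDK1 later, and cyclins B1 and B2 act with CDK1 in mitosis. Cyclin F binds no CDK as far as is known and instead directs a ubiquitin ligase to its substrates in S phase and G2. Apart from the D type, these transcripts are classically periodic, low in resting cells and high in dividing ones. An array of a whole culture measures an average, so that more cells in a phase and more RNA per cell cannot be told apart.

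Values are the processed intensity of the scanner software, as log2 relative to the 75th percentile of each array, and a fold change is a difference of such values. They compare a probe with itself between arrays and not 1 gene with another. That percentile was 666 to 838 on the control arrays and 441 to 631 on the BEX2-knockdown arrays. All 8 arrays lay on 1 slide in 1 scan, the control arrays in slide row 1 and those of BEX2 knockdown in slide row 2. Position and group therefore cannot be told apart. The 2 shNontarget arrays stood apart from each other, with a log2 difference over 1 in 34.9% of the tested genes. Within the other vectors 0.557% to 1.76% of genes differed as much. BEX2 itself read 71.0 and 55.7 (intensity) in shControl, 115 and 48.8 in shNontarget, 11.9 and 11.1 in shBEX2-1, and 20.4 and 26.0 in shBEX2-2. Both shBEX2-1 readings were not well above background. With those readings as they stood, the fitted difference in shBEX2-1 was -1.94 (3.83-fold lower, adjusted p = 0.0335 by limma). That value rests on the probe's own dim readings and is not a bound on the size of the fall. With normexp background correction the difference in shBEX2-1 was -0.39 (adjusted p = 0.209 by limma). In shBEX2-2 alone the fitted difference was -1.32 (adjusted p = 0.0812 by limma). Over all 4 BEX2-knockdown arrays, of which 2 measured it, the fitted difference was -1.63 (standard error 0.32, adjusted p = 0.0116 by limma). It was -0.45 with normexp background correction (adjusted p = 0.0801) and -1.83 with only the shNontarget arrays as control (adjusted p = 0.0785). The bile duct markers KRT7, KRT19, KRT8, KRT18, EPCAM and CDH1 were well above background on all 8 arrays. The hepatocyte markers ALB and TTR, the fibroblast marker COL1A2 and the endothelial marker PECAM1 were not well above background on any. Other markers of these types were. The fibroblast markers COL1A1 and LUM and the endothelial markers VWF and CDH5 were so on all 8 arrays. The hepatocyte marker APOA1 was so on 6 and the fibroblast marker DCN on 2.

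In BEX2-knockdown cells, 7 of the 8 cyclins that could be tested were higher than in control cells, none was lower, and CCND1 did not pass the test. CCNA2 rose 3.88-fold, CCNE2 3.48-fold, CCNE1 2.85-fold, CCNF 2.54-fold, CCNB1 and CCNB2 2.34-fold each and CCND3 2.28-fold. The test was limma on the 4 against 4 arrays, with Benjamini-Hochberg adjustment over 20450 genes and a threshold of 0.05. Of all genes tested, 13.0% passed it, 6.68% as higher. The median log2 fold change of the 8 tested cyclins was 1.29, against 0.027 over all genes tested. All 8 were well above background on every array, so that none passed the filter through the BEX2-knockdown arrays alone, and CCND2 was too dim to test on all of them. In each of the 7, all 4 BEX2-knockdown arrays lay above all 4 control arrays, as in 11.4% of all genes. A two-sided exact permutation test gave p = 0.0286 each, the smallest that 4 against 4 arrays allow. This p-value only restates the lack of overlap. That test and the limma fit take the 8 arrays as independent, although they are 2 from each of 4 vectors. By size of the log2 fold change among the 20450 genes, CCNA2 ranked 75, CCNE2 124 and CCNE1 284, while CCND1 ranked 10554. With only the shNontarget arrays as control, 3 of the 8 passed, namely CCNA2, CCNE1 and CCNE2, beside 1.66% of all genes. Leaving out either shNontarget array gave 7, beside 23.1% and 21.1% of all genes.

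**Figure D1:**
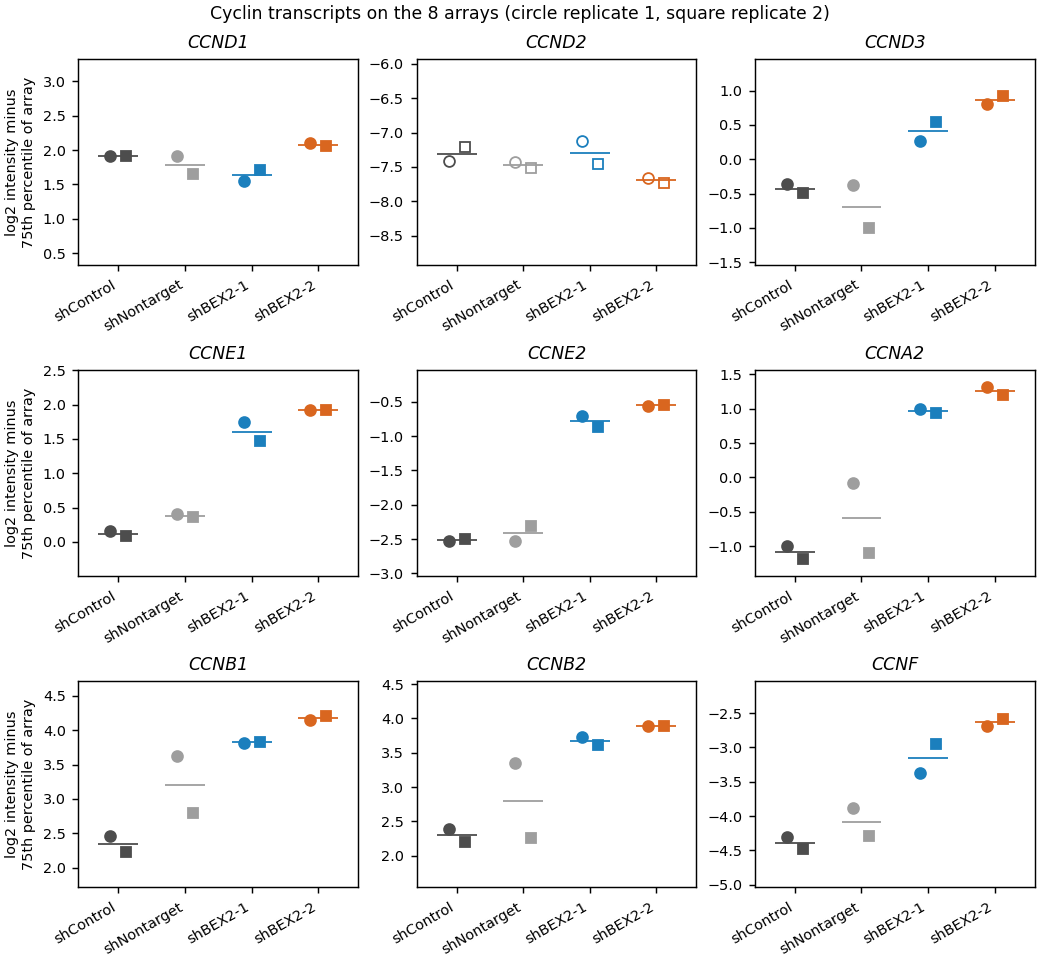
Level of each cyclin on each array, as log2 intensity minus the 75th percentile of the array (vertical axis, its position set per gene and its span the same for all), by vector. Circles are replicate 1, squares replicate 2, open symbols are readings not well above background and bars are the mean of 2 arrays. The BEX2-knockdown arrays lie above all control arrays for 7 cyclins, and not for CCND1 or for CCND2.

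Among the D-type cyclins, which respond to mitogens in G1, only CCND3 rose. CCND3 (probe A_23_P361773, hg19 chr6:41903193-41903252) read -0.36 and -0.49 (normalized log2 level) in shControl and -0.37 and -1.0 in shNontarget. It read 0.27 and 0.54 in shBEX2-1 and 0.80 and 0.92 in shBEX2-2. The groups did not overlap and were 0.63 apart at the nearest arrays, and shNontarget replicate 2 was the lowest array. The log2 fold change was 1.19 (standard error 0.20, 95% confidence interval 0.75 to 1.64, adjusted p = 0.00597 by limma). The call was lost with only the shNontarget arrays as control (log2 fold change 1.32, adjusted p = 0.0609). Before scaling by the 75th percentile its intensities overlapped, at 332 to 597 on control arrays and 531 to 1196 on BEX2-knockdown arrays.

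CCND1, the D-type cyclin most often amplified in human tumours, had levels that overlapped between the groups. Its probe (A_23_P202837, hg19 chr11:69468233-69468292) read 1.91 and 1.92 in shControl and 1.91 and 1.65 in shNontarget (normalized log2 level). The levels were 1.55 and 1.72 in shBEX2-1 and 2.10 and 2.06 in shBEX2-2. The sublines thus lay on opposite sides of the shControl arrays, shBEX2-1 below and shBEX2-2 above. Over both, the log2 fold change was 0.011 (95% confidence interval -0.34 to 0.36, adjusted p = 0.977 by limma), and its sign turned under 6 of 21 alternatives. That interval leaves out a log2 change of the size seen for CCND3. CCND1 was read by 10 spots on each array, whose coefficient of variation was 3.47% to 6.20%. CCND2, the third of the type, had intensities of 3.65 to 5.65 on control arrays and 2.92 to 3.16 on BEX2-knockdown arrays. None of the 8 readings was well above background, so that no fold is given.

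The E-type cyclins, which start S phase with CDK2, had the widest distance between groups. CCNE1 (probe A_23_P209200, hg19 chr19:30315106-30315165) read 0.16 and 0.08 in shControl and 0.41 and 0.36 in shNontarget (normalized log2 level). It read 1.74 and 1.47 in shBEX2-1 and 1.92 and 1.92 in shBEX2-2. The lowest BEX2-knockdown array stood 1.06 above the highest control array. The log2 fold change was 1.51 (standard error 0.14, 95% confidence interval 1.18 to 1.84, adjusted p = 0.000900 by limma). The rise held in the intensities before scaling as well, from 817 to 991 on control arrays to 1424 to 2393 on BEX2-knockdown arrays.

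CCNE2 (probe A_33_P3247022) rose as well, with a log2 fold change of 1.80 (standard error 0.13, 95% confidence interval 1.50 to 2.10, adjusted p = 0.000620 by limma). Its levels were -2.53 and -2.50 in shControl, -2.53 and -2.31 in shNontarget, -0.70 and -0.86 in shBEX2-1, and -0.56 and -0.55 in shBEX2-2. The gap between the groups, 1.44, was the widest of the 8 tested cyclins, and the 4 control arrays lay close together. Unscaled intensities were 126 to 148 on control arrays and 271 to 432 on BEX2-knockdown arrays. With normexp background correction the log2 fold change of CCNE2 was 1.42, as was that of CCNE1. A second CCNE2 probe was well above background on 1 of 4 control arrays and on 4 of 4 BEX2-knockdown arrays. Its readings were 17.5 to 26.0 (intensity) on control and 57.2 to 106 on BEX2-knockdown arrays, and no fold is given because most control readings were near background.

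The promoters of the A, B and F cyclins are printed because these genes are textbook cases of timed transcription, through CCAAT boxes bound by NF-Y and through the cell cycle genes homology region (CHR). CCNE1 is shown beside them as a gene of S phase entry. The 250 bases before the annotated start come from RefSeq (GRCh38.p14), written in the direction of the gene. Capitals mark matches to CCAAT on either strand (written ATTGG when on the other strand) and to TTTGAA, the CHR letters searched. The regions are chr4:121823884-121824133 (minus strand) for CCNA2, chr5:69166900-69167149 (plus) for CCNB1, chr15:59104896-59105145 (plus) for CCNB2, chr16:2429197-2429446 (plus) for CCNF and chr19:29811741-29811990 (plus) for CCNE1.
CCNA2: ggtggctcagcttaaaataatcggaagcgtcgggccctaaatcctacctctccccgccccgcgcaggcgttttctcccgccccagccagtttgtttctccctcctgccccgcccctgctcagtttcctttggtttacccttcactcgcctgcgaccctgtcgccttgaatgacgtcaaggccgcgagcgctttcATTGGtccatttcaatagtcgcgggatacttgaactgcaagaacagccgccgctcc
CCNB1: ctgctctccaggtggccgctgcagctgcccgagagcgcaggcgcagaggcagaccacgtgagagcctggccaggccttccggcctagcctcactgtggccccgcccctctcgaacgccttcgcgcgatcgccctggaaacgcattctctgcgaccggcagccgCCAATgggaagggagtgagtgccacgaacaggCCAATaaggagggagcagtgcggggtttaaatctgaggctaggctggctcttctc
CCNB2: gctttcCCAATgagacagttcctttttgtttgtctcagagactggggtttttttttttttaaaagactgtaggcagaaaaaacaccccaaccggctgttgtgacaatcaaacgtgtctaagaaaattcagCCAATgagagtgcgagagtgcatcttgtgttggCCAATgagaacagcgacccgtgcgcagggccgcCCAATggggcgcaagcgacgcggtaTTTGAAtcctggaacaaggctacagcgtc
CCNF: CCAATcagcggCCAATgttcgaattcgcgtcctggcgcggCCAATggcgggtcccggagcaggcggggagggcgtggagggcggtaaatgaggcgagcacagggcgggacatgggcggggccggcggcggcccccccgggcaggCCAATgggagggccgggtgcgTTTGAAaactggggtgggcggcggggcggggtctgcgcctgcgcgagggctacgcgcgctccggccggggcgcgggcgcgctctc
CCNE1: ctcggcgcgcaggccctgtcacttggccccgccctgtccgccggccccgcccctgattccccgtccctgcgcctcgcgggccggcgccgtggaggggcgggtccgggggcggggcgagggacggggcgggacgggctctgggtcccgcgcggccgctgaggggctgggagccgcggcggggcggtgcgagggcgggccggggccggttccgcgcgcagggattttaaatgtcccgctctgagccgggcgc

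CCNB2 and CCNF each held 4 CCAAT boxes and 1 TTTGAA, CCNB1 held 2 CCAAT boxes, CCNA2 held 1 and CCNE1 none. Variants of these letters were not searched, so that CCNA2, CCNB1 and CCNE1 are not shown to lack a CHR. In CCNB2 the CCAAT matches began at -244, -120, -87 and -54 and the TTTGAA at -29, counted from the start. In CCNB1 they began at -87 and -55. In CCNF they began at -250, -239, -210 and -106, with TTTGAA at -85. For comparison, among 35116 promoter windows of 300 bases (to 50 bases past the start), 34.6% held a CCAAT, 10.8% held at least 2, 3.26% held at least 3 and 15.2% held a TTTGAA. E2F sites were searched as TTTCGCGC, TTTGGCGC, TTTCCCGC and TTTGCCGC on both strands, were found in 3.31% of the windows and had no match in those of the 6 cyclins in the table. CCND3 has 3 annotated starts, of which 2 had 1 CCAAT each. No match in these windows overlapped another, and a match is a description of the letters and not of binding. CCND1, CCND2 and CCNE2 were not among the promoters used.

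**Figure D2:**
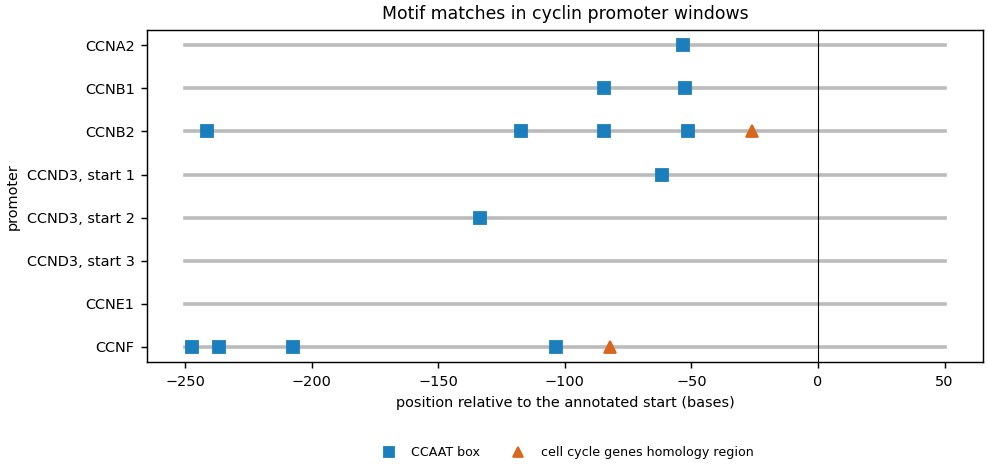
Positions of CCAAT (squares) and TTTGAA (triangles) matches on either strand in the promoter windows of 6 cyclins, in bases from the annotated start (horizontal axis), with 1 line for each annotated start. CCNB2 and CCNF hold 4 squares and 1 triangle each, and CCNE1 holds none.

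CCNA2, the cyclin of S phase and G2, had the largest fitted rise of the 8 tested cyclins. CCNE2 was above it with only the shNontarget arrays as control (1.75 against 1.70 on the log2 scale). The mean of the probes of a gene is not used for this order, because the second CCNE2 probe was near background on most control arrays. The CCNA2 probe (A_23_P58321, hg19 chr4:122739995-122740054) read -0.99 and -1.19 in shControl and -0.08 and -1.10 in shNontarget (normalized log2 level). It read 1.00 and 0.94 in shBEX2-1 and 1.32 and 1.20 in shBEX2-2. The groups were 1.02 apart at the nearest arrays, of which the control one was shNontarget replicate 1. The log2 fold change was 1.96 (standard error 0.24, 95% confidence interval 1.41 to 2.50, adjusted p = 0.00191 by limma). Over its 10 spots per array the coefficient of variation was 2.96% to 10.3%. Unscaled intensities were 310 to 709 on control arrays and 881 to 1538 on BEX2-knockdown arrays, which did not overlap either.

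The B-type cyclins, partners of CDK1 at the entry into mitosis, rose by like amounts, and both stood high on 1 control array. CCNB1 (probe A_23_P122197, hg19 chr5:68473065-68473123) read 2.46 and 2.23 in shControl and 3.62 and 2.80 in shNontarget (normalized log2 level). It read 3.81 and 3.83 in shBEX2-1 and 4.15 and 4.20 in shBEX2-2. Its shNontarget replicate 1 lay only 0.19 below the lowest BEX2-knockdown array, while the other control arrays lay far lower. The log2 fold change was 1.22 (standard error 0.28, 95% confidence interval 0.59 to 1.86, adjusted p = 0.0218 by limma), and a second CCNB1 probe (A_33_P3401621, hg19 chr5:68473872-68473931) differed by 1.29. CCNB1 was the least secure of the 7 calls. It was lost on leaving out either shControl array, shBEX2-1 replicate 1 or either shBEX2-2 array (log2 fold change 1.04 to 1.29, adjusted p = 0.0511 to 0.0734 by limma). With only the shNontarget arrays as control it was 0.79 (adjusted p = 0.189 by limma). The coefficient of variation over its 10 spots was 5.40% to 8.37%.

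CCNB2 (probe A_23_P65757, hg19 chr15:59417139-59417198) likewise had its highest control level on shNontarget replicate 1. It read 2.39 and 2.20 in shControl, 3.34 and 2.27 in shNontarget, 3.73 and 3.62 in shBEX2-1, and 3.88 and 3.89 in shBEX2-2 (normalized log2 level). The nearest arrays of the groups were 0.27 apart, and that array stood far above the other control arrays. The log2 fold change was 1.23 (standard error 0.24, 95% confidence interval 0.68 to 1.78, adjusted p = 0.0126 by limma), and with only the shNontarget arrays as control it was 0.97 (adjusted p = 0.153). Before scaling, the intensities of CCNB1 and CCNB2 overlapped between the groups, with shNontarget replicate 1 brighter than the dimmest BEX2-knockdown array.

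CCNF, which directs a ubiquitin ligase and is itself periodic, rose as well. Its probe (A_24_P193592, hg19 chr16:2507886-2507945) read -4.30 and -4.49 in shControl and -3.89 and -4.29 in shNontarget (normalized log2 level). It read -3.37 and -2.95 in shBEX2-1 and -2.68 and -2.59 in shBEX2-2. The groups were 0.52 apart, although unscaled intensities overlapped, at 34.0 to 50.5 on control and 42.7 to 105 on BEX2-knockdown arrays. The log2 fold change was 1.35 (standard error 0.23, 95% confidence interval 0.83 to 1.86, adjusted p = 0.00651 by limma). It was 0.72 with normexp background correction and still passed, and with only the shNontarget arrays as control it was 1.19 (adjusted p = 0.0938 by limma).

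By subline, the cyclins that rose did so more in shBEX2-2 by point estimate. In shBEX2-2 cells against the 4 control arrays, 7 of 8 cyclins passed as higher, where 9.67% of all genes passed and 4.86% as higher. Their log2 fold changes ran from 1.34 for CCNB2 (adjusted p = 0.0400 by limma) to 2.10 for CCNA2 (adjusted p = 0.00943 by limma). CCND1 was at 0.23 (adjusted p = 0.353 by limma), and at 0.30 and 0.17 without shNontarget replicates 1 and 2. In shBEX2-1 cells 5 of 8 passed as higher, where 7.01% of all genes passed and 3.39% as higher. These were CCNA2 at 1.81, CCNE2 at 1.68, CCNE1 at 1.35, CCNF at 1.08 and CCND3 at 0.97, while CCNB2 was at 1.12 (adjusted p = 0.0776 by limma) and CCNB1 at 1.05 (adjusted p = 0.0552). With the replicate number as a block the shBEX2-1 count was 3, because CCND3 (adjusted p = 0.0723 by limma) and CCNF (0.0702) no longer passed. Both sublines were set against the same control arrays. The 2 BEX2 target sequences printed in the study's methods are almost reverse complements of each other. Agreement of the sublines is therefore not that of 2 separate target sites. These counts rested on few arrays. The counts moved with those over all genes. In shBEX2-1 no cyclin and no gene passed without either shControl array or either shBEX2-1 array (limma), with 6 or 7 cyclins and 2197 to 3211 genes at an unadjusted p under 0.05. Without either shBEX2-2 array 2 cyclins passed, beside 0.866% and 0.870% of all genes. Without shNontarget replicate 1, 7 passed as higher, beside 52.9% of all genes. Without shNontarget replicates 1 and 2, the log2 fold change of CCND1 in shBEX2-1 was -0.15 and -0.28. These have the opposite sign to its values in shBEX2-2. In shBEX2-2 no cyclin and no gene passed without either of its own arrays (limma), with 7 cyclins and 2468 to 2603 genes at an unadjusted p under 0.05. In that subline 3 cyclins passed without shControl replicate 1 (2.33% of all genes) and 2 without shControl replicate 2 (2.07%).

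**Figure D3:**
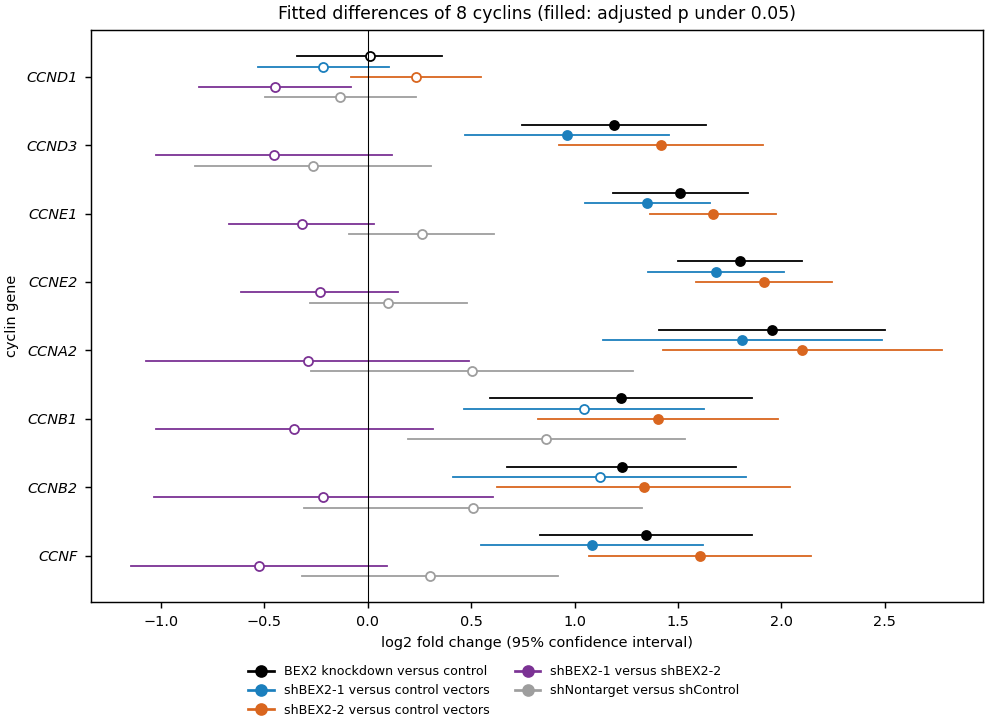
Fitted log2 fold change (horizontal axis) with its 95% confidence interval for 8 cyclins in 5 comparisons of the arrays, filled where the adjusted p was under 0.05. The intervals of both sublines lie above 0 for 7 cyclins, and those of CCND1 cross 0 except between the sublines.

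The difference between the sublines was tested directly and none of the 8 cyclins passed in limma, where 2 genes did among all tested (0.00978%), INHBB and RSAD2, named because the count is small. At an unadjusted p under 0.05 there were 1493 genes (7.30%), among them 1 cyclin. All 8 fitted differences, shBEX2-1 minus shBEX2-2, were below 0, as for 44.5% of all genes. They ran from -0.21 for CCNB2 (95% confidence interval -1.03 to 0.60) to -0.52 for CCNF (-1.14 to 0.096). CCND1 had the single interval that left out 0, at -0.45 (95% confidence interval -0.81 to -0.08, adjusted p = 0.524 by limma). On leaving out either of the shNontarget arrays, CCNB1, CCND1 and CCND3 passed as lower in shBEX2-1, where 14.4% and 14.7% of all genes passed. In the mean level, 6 of the 7 risers kept the order shControl, shNontarget, shBEX2-1, shBEX2-2, and CCND3 had the control vectors exchanged. That the control vectors come first follows from the choice of the 7 as risers, and their profiles are alike. The share of all genes with this order was not taken. The 2 arrays of shControl and of shNontarget overlapped for CCNA2, CCNB2, CCND3 and CCNE2, so that those neighbours did not differ beyond their spread. With 2 arrays each, a lack of overlap is not read as a difference, and its share over all genes was not taken. With all 8 arrays, no cyclin passed in limma between the control vectors or between the sublines. For CCND1 the order was shBEX2-1, shNontarget, shControl, shBEX2-2, where shNontarget overlapped both of its neighbours.

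Between the control vectors no cyclin passed in limma, as no gene did in all (0 of 20450, with 1565 or 7.65% at an unadjusted p under 0.05). CCNB1 came nearest, at 0.86 higher in shNontarget (95% confidence interval 0.20 to 1.53, adjusted p = 0.525 by limma). The other cyclins ran from -0.26 for CCND3 to 0.51 for CCNB2. Here too the shNontarget arrays decided the count. Without shNontarget replicate 1, CCNB1 passed as higher and CCND3 as lower in shNontarget, while 45.2% of all genes passed. Without shNontarget replicate 2, CCNA2, CCNB1 and CCNB2 passed as higher, while 46.3% of all genes passed. Neither share of cyclins was above that of all genes.

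Of 6 CDKs and small subunits, 4 rose in BEX2-knockdown cells and none fell, where 13.0% of all genes passed, 6.68% as higher. The median log2 fold change was 1.23, against 0.027 over all genes tested. CDK1, the kinase of cyclins A2 and B, rose by 1.49 (adjusted p = 0.00677 by limma). CDK2, the kinase of cyclins E and A2, rose by 1.52 (adjusted p = 0.000699 by limma). The small subunits CKS1B and CKS2, which help the kinases dock on substrates, rose by 1.02 and 1.43. CDK4 and CDK6, the kinases of the D-type cyclins, did not pass, at -0.15 (adjusted p = 0.678 by limma) and 0.39 (adjusted p = 0.175), and a difference between the kinases was not tested. With only the shNontarget arrays as control, CDK2 alone passed, beside 1.66% of all genes.

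Of 8 genes that switch the cyclin-bound kinases on or hold them off, 4 rose, none fell, and the median was 0.62. Of all genes tested, 13.0% passed, 6.68% as higher. The phosphatases CDC25A and CDC25C, which activate CDKs, rose by 1.66 and 1.51 on the log2 scale, and CDC25B was at 0.67 (adjusted p = 0.0601 by limma). The kinases that inhibit CDK1, PKMYT1 and WEE1, rose by 1.61 and 0.58. CDK7, MNAT1 and CCNH, the CDK-activating kinase, did not pass, at -0.47, 0.29 and 0.31. The count moved with that over all genes. It was 6 without shNontarget replicate 1, where 23.1% of all genes passed, and 0 with only the shNontarget arrays as control (1.66%). With only the shControl arrays as control it was 7, and CDK7 passed as lower, where 33.5% of all genes passed.

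**Figure D4:**
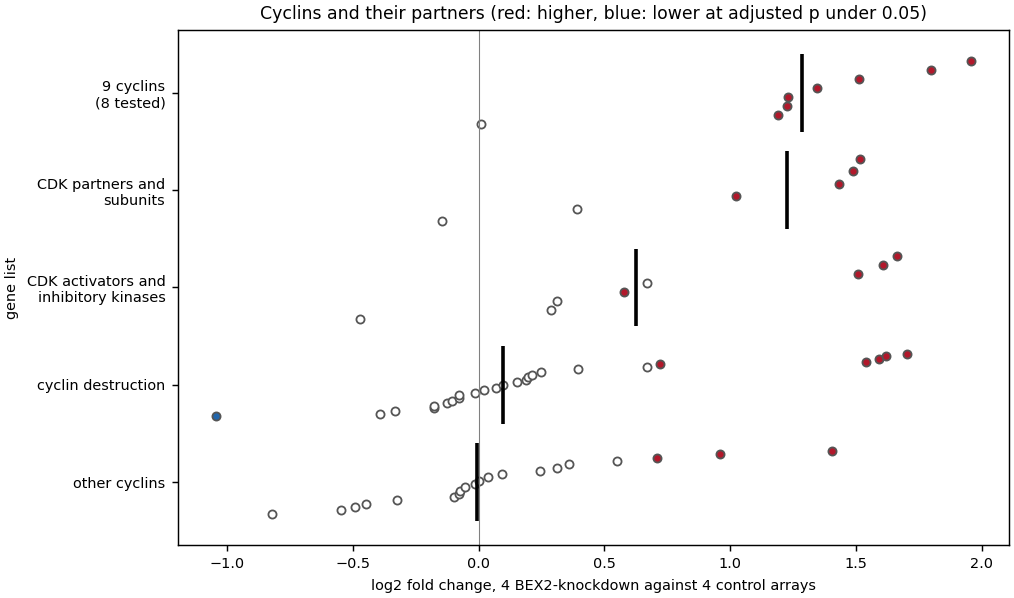
Log2 fold change of 4 BEX2-knockdown against 4 control arrays (horizontal axis) for the cyclins and for 4 lists of genes that act with them. Each point is a gene, red if higher and blue if lower at an adjusted p under 0.05, and vertical bars are medians, which run from 1.29 for the cyclins to -0.006 for the other cyclins.

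Of 25 genes that destroy cyclins by ubiquitination, 5 rose, 1 fell and 19 did not pass, with a median of 0.095. Of all genes tested, 6.68% passed as higher and 6.27% as lower. The members that rose were the mitotic activator CDC20 (log2 fold change 1.62), the ubiquitin-conjugating enzymes UBE2C (1.70) and UBE2S (1.54), the inhibitor FBXO5 (0.72) and SKP2 (1.59), an F-box protein that recognises the CDK inhibitor p27. The member that fell was FBXO4 (-1.04, adjusted p = 0.0105 by limma), an F-box protein reported to recognise cyclin D1. None of the 12 listed subunits of the anaphase-promoting complex passed, with values from -0.33 for CDC16 to 0.39 for CDC27. The list does not hold every subunit. Without shNontarget replicate 1 the counts were 9 higher and 2 lower, beside 23.1% of all genes. With only the shNontarget arrays as control SKP2 alone passed, beside 1.66%.

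Of 21 other cyclins, a mixed list that includes cyclins of transcription, 20 could be tested, 3 rose, none fell, and the median was -0.006. That is close to the 13.0% of all genes that passed and is no result about the list. CCNC, of the Mediator kinase module, rose by 0.71, CCNK, the partner of the transcriptional kinases CDK12 and CDK13, by 0.96, and CCNI2 by 1.41. CCNA1, the A-type cyclin of the germ line, had no array well above background and was not tested. The count was 5 higher and 1 lower without shNontarget replicate 1, beside 23.1% of all genes. With only the shNontarget arrays as control CCNK alone passed, beside 1.66%. All lists were compiled with earlier results of these data known.

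Marker genes of other cell types were read beside these values. Of 3 leukocyte markers, CD68, a lysosomal protein also made outside leukocytes, rose by 0.99 (adjusted p = 0.0472 by limma). CD3E was well above background on 3 arrays and PTPRC on 7. In units of the 75th percentile, the summed level of the 3 was 0.337 to 0.584 on control and 0.773 to 1.12 on BEX2-knockdown arrays. These do not overlap, but the sum is mostly CD68, at -0.55 to 0.05 (normalized log2 level) on BEX2-knockdown arrays. PTPRC reached at most -3.85 and CD3E -4.88 on any array. Of all genes tested, 22.2% had groups that did not overlap, in either direction. Of 6 bile duct markers, KRT8 rose by 1.02 (adjusted p = 0.0165 by limma), and the summed level of the 6 was 632 to 894 on control and 853 to 1022 on BEX2-knockdown arrays. No hepatocyte, fibroblast or endothelial marker passed in this comparison, with 5 of those 10 markers tested. The fibroblast marker LUM moved in opposite directions by subline. It was at 1.06 in shBEX2-1 (adjusted p = 0.0519 by limma) and at -1.12 in shBEX2-2 (adjusted p = 0.0361 by limma). The part of all these markers in the cyclin values was not tested.

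Over the 8 arrays, the profiles of the 7 risers followed each other, with Pearson's r from 0.83 for CCNB1 and CCND3 to 0.991 for CCNE1 and CCNE2. CCND1 had r from 0.064 to 0.387 with them. These values describe 8 arrays that share 1 slide and fall into 2 groups. Among all tested genes, the profile most like CCNE2 was that of CDK2, its kinase partner (r = 0.999). Nearest to CCNA2 was LRR1 (r = 0.999, named PPIL5 on the array), to CCNB1 the mitotic kinase PLK1 (r = 0.997), and to CCNB2 DNAJC9 (r = 0.999). Nearest to CCNE1 was CHAF1A, a subunit of the chromatin assembly factor of replication (r = 0.996), and to CCNF EED, a subunit of Polycomb complex PRC2 (r = 0.996). CLPB was nearest to CCND3 (r = 0.994) and SLC31A2 to CCND1 (r = 0.986). Next in order were RNASEH2A for CCNA2, DTYMK for CCNB1, RBL1 for CCNE1, MSI2 for CCNE2, SUV39H1 for CCNF, LNPK for CCND3 and the pseudogene ALG1L1P for CCND1. For CCNB2 it was PTTG2, which is uncertain because PTTG1 is nearly identical in sequence.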

How the data were processed

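The authors labelled total RNA with Cy3, hybridized it to Agilent arrays and read them with Feature Extraction 10.7.3.1. That software subtracted the background and removed spatial trends to give the deposited intensity of each spot, which is not scaled between arrays. Control spots were left out, and 3 to 15 outlier spots per array were set to missing. Of 58717 other spots, 59.8% to 64.6% were well above background and none was saturated. Precision is limited by the number of arrays. Intensities were taken to log2, the 75th percentile of each array was subtracted and the mean was taken over the spots of a probe. A probe had to be well above background on 4 or more of the 8 arrays, and the brightest stood for its gene. This left 20450 genes, after 14 with a missing value were left out.

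Tests used limma 3.58.1 (lmFit, eBayes with a variance trend) in R 4.3.3 with statmod 1.5.0, and permutation tests used scipy 1.17.1 in Python 3.11.15, with numpy 2.4.6, pandas 2.3.3 and matplotlib 3.10.9. Both groups were compared in 1 fit, and a model of 4 vectors gave the sublines and the control vectors. Code was tested on simulated data. The rank product named in the methods was not run. Replicate numbers were taken to pair arrays across vectors, since the names of the deposited files give each number a day. The replicate differences of vector pairs correlated over genes at -0.063 to 0.26. Alternatives were quantile normalization, normexp (offset 50), the deposited series table, other filters and probe rules, the replicate block, a random block for vector, no variance trend, each control vector alone, the methods' t-test and each array left out. Members and lists were chosen with earlier results of these data known. Named genes are BEX2, the 9 cyclins, list genes that passed or are described by their role, and the 2 genes most like each cyclin. Gene names are those of the array, updated through RefSeq (GRCh38.p14), where 19607 of 34809 names matched. Probe positions are those of the array files (hg19), and exon annotation and protein sequences were not used here.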

Additional observations from a re-analysis of the deposited data

Results flagged for a closer look

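In 3 cyclins a single control array stood far from the other 3, by the ratio of its gap to the range of the 4. CCNB2 read 3.34 (normalized log2 level) on shNontarget replicate 1, where the other control arrays read 2.20 to 2.39. CCND1 read 1.65 on shNontarget replicate 2, against 1.91 to 1.92. CCNE2 read -2.31 on shNontarget replicate 2, against -2.53 to -2.50. All 3 were shNontarget arrays. Of 20 groups of 4 arrays examined, 10 genes in 2 groups each, chance alone marks about 1 in 20.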

How the results depend on the processing

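CCNA2, CCNE1 and CCNE2 passed under all 21 alternatives to the comparison of BEX2 knockdown with control. CCNB1 lost its call in 7, one of them the t-test of the methods after adjustment, and CCNB2, CCND3 and CCNF in 1 each. CCND1 never passed, and its log2 fold change turned to -0.015 with quantile normalization, -0.022 with normexp, -0.056 without shNontarget replicate 2, -0.070 and -0.058 without shBEX2-2 replicates 1 and 2, and -0.056 with only the shControl arrays as control (-0.070 to 0.11 over the arrays left out). The count of cyclins was 3 with only the shNontarget arrays as control and 6 to 7 on leaving out 1 array. For shBEX2-1 it was 3 with no filter on dim probes, 3 with the replicate block, and 0 to 8 on leaving out 1 array. On the same basis it was 0 to 8 for shBEX2-2, 0 to 3 between the sublines and 0 to 3 between the control vectors. The replicate block, which rests on the pairing of replicate numbers, changed no other count of cyclins. Over all genes, 2649 passed, against 340 with only the shNontarget arrays as control, 6842 with only the shControl arrays, and 1246 to 4727 on leaving out 1 array. The causes were not tested. The median log2 fold change over all genes moved from 0.027 to 0.014 with quantile normalization and 0.095 with normexp. Signal over background limits CCND2, which has no usable reading, and CCNF and CCNE2, whose folds were lower with normexp. For CCNE2 the log2 fold change was 1.42 with normexp, against 1.80. Where 1 array of a vector was left out, the lone array was assumed to vary like the others.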
